A study of Mus musculus with 4 samples.

Results

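The messenger RNAs of 8 genes for RNA-binding proteins that control translation in the germ line were followed in sorted mouse spermatocytes. They were Dazl and Boll of the DAZ family, the meiotic helicase gene Ythdc2, the polyadenylation factor gene Cpeb1, the Y-box genes Ybx1 and Ybx2, and the poly(A)-binding protein genes Pabpc1 and Pabpc2. The genes were named for their function and taken by symbol. All 8 were present among the 23980 genes of the table.

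Germ cells make many messenger RNAs well before the proteins are needed, and RNA-binding proteins decide when those messages are translated. DAZL and BOLL bind messages and favour their translation, CPEB1 lengthens the poly(A) tails of its targets, and poly(A)-binding proteins coat those tails. YBX2, also known as MSY2, packs stored messages in meiotic and postmeiotic male germ cells, while YTHDC2 acts with MEIOC when germ cells turn from mitosis to meiosis.

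Polyadenylated RNA was sequenced from leptotene/zygotene (L/Z) spermatocytes, cells early in the first meiotic prophase, that had been sorted from mice 3 to 4 weeks old. The animals were F1 hybrids of C57BL6/J and MSM/Ms, and each of 4 genotypes gave 1 library: Dnmt3L het, Dnmt3L KO, Pld6 WT and Pld6 KO. Pld6 encodes a nuclease of the piRNA pathway, which silences retrotransposons in germ cells, and Dnmt3L encodes a cofactor of the methyltransferases that methylate DNA in prospermatogonia. The Dnmt3L het library (control replicate 1) and the Pld6 WT library (control replicate 2) served as controls, although the het animal itself carried 1 mutant Dnmt3L allele. According to the study, mutant testes of this age hold no germ cells past the zygotene stage, whereas control testes also hold later spermatocytes and spermatids. How many animals went into a library was not given in the sources used here. With 1 library per mutant, no mutant value had a replicate check, and the difference between the controls included genotype, line and sorting.

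Between 30439943 and 63875934 fragments per library fell in genes. The targeted genes followed the labels: Pld6 was at 0.334 FPKM (fragments scaled to transcript length and library depth) in the Pld6 KO library against 8.55 to 19.5 in the other libraries, and Dnmt3l had 0 fragments in the Dnmt3L KO library against 0.432 to 1.27 FPKM elsewhere. Somatic cell markers differed between the libraries. The summed level of 10 Sertoli cell markers was 3949 FPKM in Dnmt3L het and 5515 in Dnmt3L KO, but 134.8 in Pld6 WT and 362.9 in Pld6 KO. All 18 L/Z markers were detected in each library, at a summed 3822 FPKM in Pld6 WT, 2241 in Pld6 KO, 2184 in Dnmt3L het and 1381 in Dnmt3L KO. Spermatogonial markers summed to 609.9 to 857.4 FPKM. In that order of libraries, Leydig cell markers summed to 25.95, 237.3, 331.2 and 333 FPKM. Macrophage markers summed to 14.39, 40.65, 51.3 and 99.2 FPKM, and peritubular and vascular markers to 141.2, 604.3, 604.9 and 322.4. In bulk RNA, fewer cells of a type and less RNA per cell cannot be told apart.

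In short, 2 of the 8 genes, Ybx2 and Pabpc2, lay more than 2-fold (in FPKM + 1) below both controls in each mutant library, and no gene of the set lay more than 2-fold above both. The share past this threshold was 25.0% of the set in each mutant, a set chosen with earlier results of these data known. Of all 23980 genes, 5.41% lay more than 2-fold below both controls in Pld6 KO and 5.78% did so in the other mutant, and of the 8367 genes with a mean of at least 10 FPKM, 5.29% and 5.78% did. The remaining 6 genes stayed within 2-fold of at least 1 control. By any size, 5 of the 8 lay below both controls in Pld6 KO, where 33.0% of genes with a mean of at least 10 FPKM did, and 7 of the 8 in the Dnmt3L KO library, where 34.7% did. The median log2 change of the set was -0.42 and -0.78, beside -0.09 and -0.04 over those genes. For the 18 L/Z markers it was -0.35 and -1.12, so the shift of the median was not particular to the set. Differences were taken on the log2(FPKM + 1) scale, which understates the change of genes near 0.

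**Figure D1:**
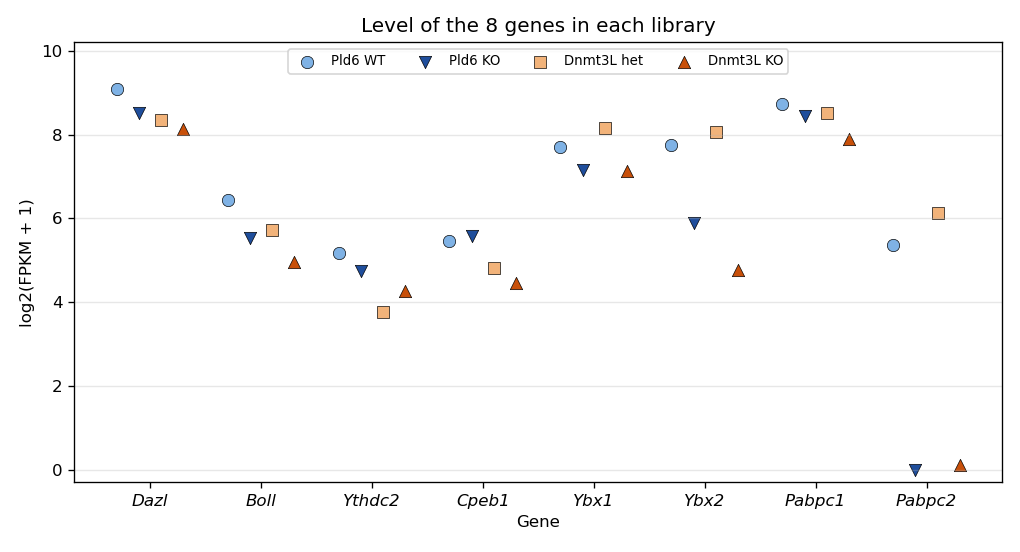
Level of each of the 8 genes, as log2(FPKM + 1), in the 4 libraries, with 1 symbol per library. Pabpc2 sits at or near 0 in both KO libraries and Ybx2 lies well below both controls. The KO symbols of the other genes lie within 2-fold of at least 1 control, most of them below both controls in Dnmt3L KO.

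Promoters are shown for Ybx1 and Ybx2, the paralogs whose levels parted in the mutants, and for Dazl, the most abundant germ cell gene of the set, since loss of Dnmt3L acts on DNA methylation. The windows are from RefSeq on GRCm38.p6 and span an annotated start, most of each lying upstream of it, 5′ to 3′ along the gene. Such a start need not be the outer end of the gene, and the Ybx1 window lies inside the gene span given below. Capitals mark CCAAT, the core of the NF-Y site, or ATTGG, its reverse. The Dazl window is chr17:50293571-50293870 on the minus strand, the Ybx1 window chr4:119294464-119294763 on the minus strand, and the Ybx2 window, the upstream one of a pair, chr11:69935649-69935948 on the plus strand.
Dazl: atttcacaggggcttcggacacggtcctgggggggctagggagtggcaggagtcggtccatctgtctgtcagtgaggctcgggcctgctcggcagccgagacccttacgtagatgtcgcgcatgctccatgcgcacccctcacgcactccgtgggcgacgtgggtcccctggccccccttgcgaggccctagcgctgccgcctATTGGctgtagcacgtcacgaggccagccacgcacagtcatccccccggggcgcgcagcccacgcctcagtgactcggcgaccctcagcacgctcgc
Ybx1: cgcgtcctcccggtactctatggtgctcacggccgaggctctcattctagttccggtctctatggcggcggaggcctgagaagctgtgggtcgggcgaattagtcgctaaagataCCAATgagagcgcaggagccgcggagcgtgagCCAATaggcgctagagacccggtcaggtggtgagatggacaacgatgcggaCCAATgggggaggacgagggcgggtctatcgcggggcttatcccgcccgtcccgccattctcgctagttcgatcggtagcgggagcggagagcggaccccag
Ybx2: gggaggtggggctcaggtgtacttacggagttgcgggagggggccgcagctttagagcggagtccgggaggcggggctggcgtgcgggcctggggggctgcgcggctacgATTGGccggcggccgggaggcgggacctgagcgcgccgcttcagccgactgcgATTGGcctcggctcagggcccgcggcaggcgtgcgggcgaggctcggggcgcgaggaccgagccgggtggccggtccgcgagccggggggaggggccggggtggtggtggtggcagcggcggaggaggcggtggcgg
CCAAT occurred 1 time in the Dazl window, 3 times in the Ybx1 window and 2 times in the Ybx2 window. It was present on either strand in 37.4% of all 32851 windows. The windows held 28, 32 and 40 CpG dinucleotides in that order, against a median of 7 over all windows. CpG dinucleotides are where DNA methylation is laid down, and at least 85.8% of all windows held fewer than each of these. No methylation values were used here, and the part of promoter methylation in the levels of these genes was not tested. Of the set, 5 genes had a window, and none of those windows held TAACNG, the MYB motif present in 23.3% of all windows, or TGACGTCA, the cyclic AMP response element present in 1.8%. CACGTG, the E-box motif present in 7.2% of all windows, occurred in a Boll window and in the Cpeb1 window.

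Dazl (chromosome 17, 50279393 to 50293620) is needed for germ cells to enter meiosis. It stood at 540 FPKM in Pld6 WT, 323 in Dnmt3L het, 363 in the Pld6 KO library and 280 in Dnmt3L KO. The Pld6 KO value fell between the controls and the Dnmt3L KO value was below both, by 1.15-fold from the nearer one. The control mean was 431 ± 154 FPKM (SD, n = 2). Against it the log2 changes were -0.25 and -0.62 (Pld6 KO first), while the controls differed by -0.74 (het minus WT). Dazl ranked above at least 98.7% of genes in every library.

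Boll (chromosome 1, 55243566 to 55363789) is the DAZ family member that mouse spermatids need. Its level was 85.3 FPKM in Pld6 WT, 51.7 in Dnmt3L het, 44.8 in the Pld6 KO library and 30.2 in Dnmt3L KO. Both mutants lay below both controls, by 1.15-fold and 1.71-fold from the nearer control. The log2 changes were -0.60 and -1.16, around a control mean of 68.5 ± 23.7 FPKM (SD, n = 2). The gap of -0.71 between the controls (het minus WT) was larger than the change in Pld6 KO and smaller than that in Dnmt3L KO. Relative to Dazl, Boll was 15.8% in Pld6 WT and alike in Dnmt3L het, 12.4% in the Pld6 KO library and 10.8% in Dnmt3L KO.

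Ythdc2 (chromosome 18, 44827730 to 44889720) encodes the helicase that works with MEIOC at meiotic entry. It stood at 34.9 FPKM in Pld6 WT, 12.5 in Dnmt3L het, 25.6 in the Pld6 KO library and 18.3 in Dnmt3L KO. Both mutant values fell between the controls, which were themselves more than 2-fold apart (log2 -1.41, het minus WT). Among genes with a mean of at least 10 FPKM, 6.79% were more than 2-fold lower and 15.9% more than 2-fold higher in het than in WT, and Ythdc2 was the only gene of the set past that difference. Its log2 changes were 0.11 and -0.36.

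Cpeb1 (chromosome 7, 81347026 to 81458001) encodes the protein that binds cytoplasmic polyadenylation elements. It was measured at 42.6 FPKM in Pld6 WT, 27.0 in Dnmt3L het, 46.4 in the Pld6 KO library and 20.8 in Dnmt3L KO. The Pld6 KO library was above both controls and the Dnmt3L KO library below both. The log2 changes of 0.40 and -0.71 compare with -0.64 between the controls.

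Ybx1 (chromosome 4, 119277327 to 119296265) encodes the Y-box protein found in most cell types. Its level was 207 FPKM in Pld6 WT, 284 in Dnmt3L het, 142 in the Pld6 KO library and 138 in Dnmt3L KO. The 2 KO values were close to each other and below both controls. The control mean was 246 ± 54.5 FPKM (SD, n = 2), and the log2 changes were -0.79 and -0.83. Of the 50-base stretches of its longest transcript, 25.1% also occur in transcripts of 6 other genes, so how reads were shared among those copies makes its level less certain.

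Ybx2 (chromosome 11, 69935805 to 69941604) showed a larger separation than its paralog. It was at 214 FPKM in Pld6 WT and 267 in Dnmt3L het, but at 57.7 in the Pld6 KO library and 26.0 in Dnmt3L KO. Both KO libraries lay clearly below both controls, which differed by 1.25-fold. Against the control mean of 240.0 ± 37.3 FPKM (SD, n = 2), Pld6 KO kept 24.0% and Dnmt3L KO 10.8%. The log2 changes were -2.04 and -3.16. The nearer control was 3.71-fold higher than Pld6 KO and 8.23-fold higher than Dnmt3L KO. The fragments behind these values ranged from 1678 to 23585.

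The ratio within each library removes the depth of that library but not its mix of cells, whose part in the ratio was not tested. Ybx2 stood at 103% of Ybx1 in Pld6 WT and 93.8% in Dnmt3L het. It was 40.8% in Pld6 KO but 18.9% in the other mutant. In both controls the paralogs were thus near parity, and in both mutants Ybx1 was the higher of the pair.

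Pabpc1 (chromosome 15, 36595658 to 36609581) encodes the general cytoplasmic poly(A)-binding protein. It stood at 421 FPKM in Pld6 WT, 365 in Dnmt3L het, 344 in the Pld6 KO library and 236 in Dnmt3L KO. Both KO values lay below both controls, with log2 changes of -0.19 and -0.73. The control mean was 393 ± 39.8 FPKM (SD, n = 2). Of its 50-base stretches, 5.2% also occur in transcripts of other genes.

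Pabpc2 (chromosome 18, 39773497 to 39776082) is a testis-expressed relative of Pabpc1 whose span equals the 2586 bases of its transcript, so it has no intron. It was at 40.1 FPKM in Pld6 WT and 68.5 in Dnmt3L het, from 3889 and 10606 fragments. No fragment was assigned in Pld6 KO, and 9 fragments gave 0.0796 FPKM in Dnmt3L KO (95% Poisson interval 0.0364 to 0.151, counting error only). Both KO libraries were far below both controls, and the controls differed by 1.71-fold. With a floor of 3 fragments per library, which is 0.0397 FPKM in Pld6 KO, Pabpc2 was at least 1009-fold lower there than in the lower control. In Dnmt3L KO it was 503-fold lower than in the lower control, at 0.147% of the control mean. None of its 50-base stretches occurred in a transcript of another gene. Pabpc2 stood at 9.52% and 18.8% of Pabpc1 in the WT and het libraries, 0% in the Pld6 KO library and 0.0337% in Dnmt3L KO.

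**Figure D2:**
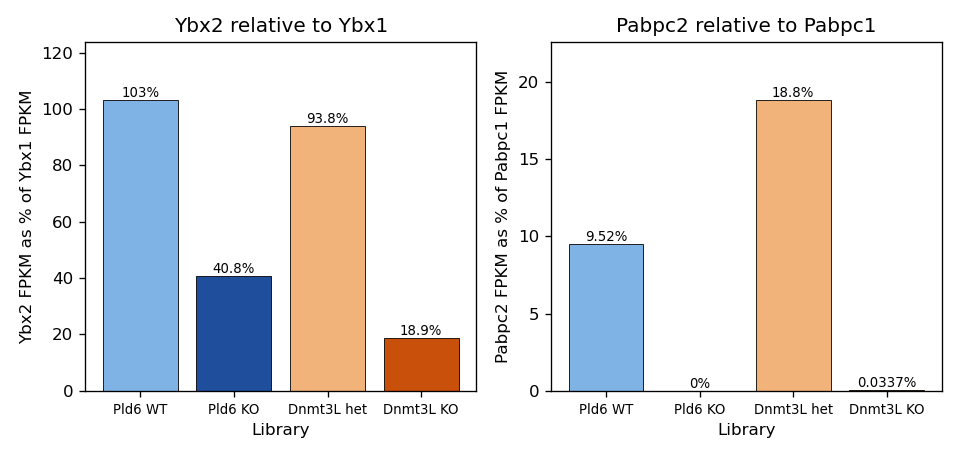
Level of Ybx2 as a percentage of Ybx1 (left) and of Pabpc2 as a percentage of Pabpc1 (right) in each library, as bars from 0, with 1 library per bar. Ybx2 was at 103% and 93.8% in the controls and 40.8% and 18.9% in the mutants, and Pabpc2 was at 9.52% and 18.8% in the controls and near 0 in both mutants.

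A count model was fitted to all 4 libraries, with the spread taken from the controls. At an adjusted p of 0.05 edgeR's quasi-likelihood test called 0 of 18657 genes in either mutant. At an unadjusted p under 0.05 it gave 102 higher (0.547%) and 1383 lower genes (7.41%) for Pld6, and 203 (1.09%) and 1440 (7.72%) for Dnmt3L, and Ybx2 and Pabpc2 were among the lower genes both times. With edgeR the adjusted p of Pabpc2 was 0.102 in Pld6 KO and, in the other mutant, 0.0967, which equalled the lowest of any gene in each case. Over the alternatives its adjusted p ranged from 1.12e-08 (DESeq2) to 0.13 for Pld6 KO and from 2.92e-19 (DESeq2) to 0.124 for Dnmt3L KO, and edgeR with no filter on low counts gave 0.0233 and 0.0203. For Ybx2 edgeR gave a log2 fold change of -2.11 (SE 0.64, adjusted p = 0.332) in Pld6 KO and -3.22 (SE 0.69, adjusted p = 0.141) in Dnmt3L KO. Its adjusted p over the alternatives ran from 0.105 to 0.366 and from 0.000886 to 0.158. DESeq2 called 15 higher and 957 lower genes of 17801 in Pld6 KO (0.0843% and 5.38%) and 17 and 919 in Dnmt3L KO (0.0955% and 5.16%). Of the set it called Pabpc2 in both mutants and Ybx2 in Dnmt3L KO, while the other 6 genes had adjusted p-values from 0.786 to 1.

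The mutants were also pooled against the controls, with the line as a block, a fit added after the data had been seen that treats the different mutations as 1 condition. The pooled fit left 1 residual degree of freedom with the block and 2 without it. With the block edgeR's quasi-likelihood test called 131 higher (0.741%) and 1058 lower (5.98%) of 17686 genes, and 0 in either direction without it. Of the set it called Ybx2 (log2 fold change -2.66, SE 0.39, adjusted p = 0.00742, against 0.131 without the block) and Pabpc2 (adjusted p = 0.000416, against 0.0877). Both were lower in 2 of 2 lines. The other 6 genes were not called, with adjusted p-values from 0.105 for Boll to 0.985 for Ythdc2 in this edgeR fit.

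Each mutant was also set beside the control of its own line, 1 library against 1, where the comparisons share no library. In each line 7 of the 8 genes were lower in the KO, where 53.3% and 46.4% of genes with a mean of at least 10 FPKM were lower. Pld6 KO minus Pld6 WT was -0.57 for Dazl, -0.91 for Boll, -0.43 for Ythdc2, 0.12 for Cpeb1, -0.55 for Ybx1 and -0.29 for Pabpc1. Dnmt3L KO minus Dnmt3L het was -0.20, -0.76, 0.52, -0.36, -1.04 and -0.62 in the same order. Ybx2 differed by -1.87 and -3.31, and Pabpc2 by -5.36 and -6.01, the lowest differences of the set in either line. The size for Pabpc2 depends on the pseudocount, and with 0.1 FPKM in place of 1 it was -8.65 and -8.58. More than 2-fold lower were thus 2 of the 8 in the Pld6 line, where 6.62% of those genes were, and 3, with Ybx1, in the Dnmt3L line, where 7.47% were. The median of the 8 genes was -0.56 and -0.69, and that of genes with a mean of at least 10 FPKM -0.04 and 0.04. The 18 L/Z spermatocyte markers had own-line medians of -0.68 and -0.52, so a fall of this size was not particular to the set.

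**Figure D3:**
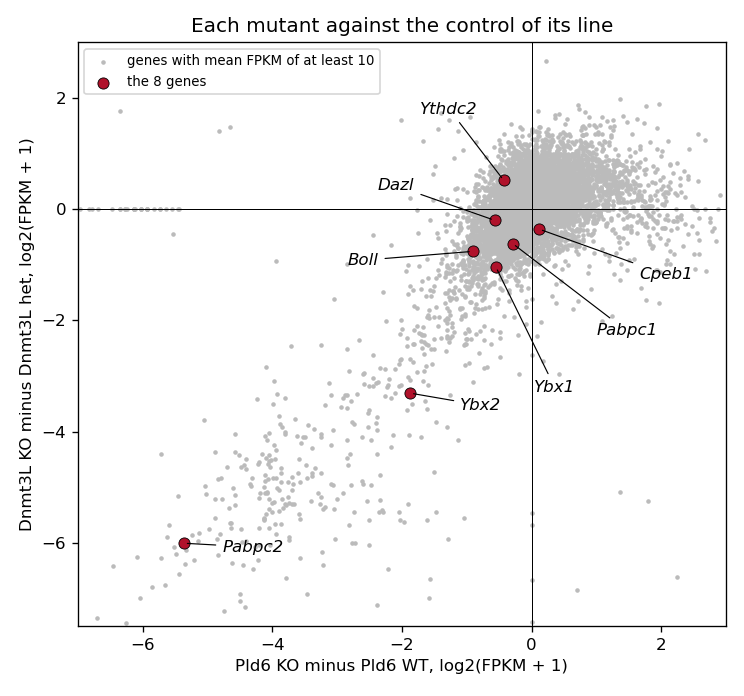
Each point is a gene, by its log2(FPKM + 1) difference between Pld6 KO and Pld6 WT (horizontal axis) and between Dnmt3L KO and Dnmt3L het (vertical axis), for genes with a mean of at least 10 FPKM in grey and the 8 genes in red, with genes beyond the axes not drawn. Pabpc2 and Ybx2 lie in the lower left, at -5.36 and -6.01 and at -1.87 and -3.31, further from the origin than the other 6 genes, of which Ybx1 and Boll are the lowest.

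Levels were then read against the L/Z spermatocyte list, whose median level differed between libraries (74.5 FPKM in Dnmt3L het, 66.0 in Dnmt3L KO, 110 in Pld6 KO and 178 in Pld6 WT). Relative to that list, Dazl varied by 0.53 on the log2 scale over the 4 libraries, Ythdc2 by 0.66, Boll by 0.79 and Cpeb1 by 0.80. Over the 8367 genes with a mean of at least 10 FPKM the median of this range was 1.56, and 8.6% of those genes varied less than Cpeb1. Before the list was subtracted these 4 genes had ranges of 0.94, 1.41, 1.47 and 1.12, all above the median of 0.89 over the same background. Against the list Pabpc1 varied by 1.06 (0.83 before), Ybx1 by 1.73 (1.04 before), Ybx2 by 3.17 (3.31 before) and Pabpc2 by 6.71 (6.12 before). Ybx2 and Pabpc2 thus varied more than the rest of the set both before and after the list was subtracted, a description over 4 libraries with no test. Centred on that list, the differences from Pld6 WT in Pld6 KO turned positive for Dazl (0.11), Ythdc2 (0.25), Ybx1 (0.14) and Pabpc1 (0.40). The changes against both controls in Dnmt3L KO turned positive for Dazl (0.18), Ythdc2 (0.59) and Cpeb1 (0.07), as the median of genes with a mean of at least 10 FPKM moved from -0.04 to 0.64. With the other choice of control these signs did not turn: against both controls in Pld6 KO the centred values were -0.18 for Dazl, -0.97 for Ybx1 and -0.23 for Pabpc1, with Ythdc2 at 0.32, and against the het in Dnmt3L KO they were -0.06 for Dazl and -0.21 for Cpeb1, with Ythdc2 at 0.66. Ybx2 and Pabpc2 stayed negative, at -1.19 and -4.68 against Pld6 WT and at -2.58 and -5.18 in Dnmt3L KO.

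Markers of later germ cells moved with Ybx2 and Pabpc2. The summed level of 10 pachytene spermatocyte markers was 668.7 and 1123 FPKM in Pld6 WT and Dnmt3L het, against 123.2 and 104.3 in their respective KO libraries. For 12 spermatid markers it was 183.3 and 7102 FPKM in the controls, against 11.19 and 28.85. More than 2-fold below both controls were 7 and 8 of the 10 pachytene markers and 12 and 11 of the 12 spermatid markers, in Pld6 KO and then Dnmt3L KO. At 3 fragments or fewer were Pgk2, Tnp2, Acrv1, Acr and Catsper1 in Pld6 KO, and Prm2 and Catsper1 in Dnmt3L KO. A lower log2 change than that of Pabpc2 was found for 2 of the 10 pachytene markers and 4 of the 12 spermatid markers in either mutant. A lower change than that of Ybx2 was found for 6 and 4 of the 10 pachytene markers. Among the 12 spermatid markers it was found for 11 and 9, in Pld6 KO and then Dnmt3L KO. The part of these cells in the Ybx2 and Pabpc2 values was not tested.

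The controls themselves differed in these markers. Spermatid markers were 38.7-fold higher in Dnmt3L het than in Pld6 WT by their sum but 5.24-fold by the median marker, and pachytene markers 1.68-fold and 1.37-fold. Pabpc2 was 1.71-fold higher, Ybx2 1.25-fold and Ybx1 1.37-fold. Dazl, Boll and Cpeb1 were lower in het, at 0.598, 0.606 and 0.634 of WT, beside 0.571 for the L/Z sum.

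**Figure D4:**
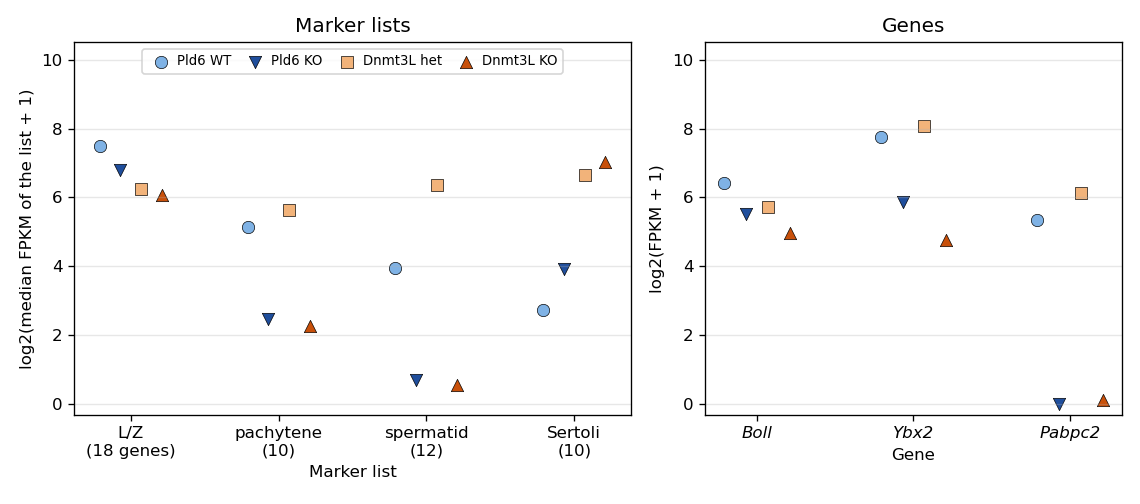
Median FPKM of 4 marker lists (left) and levels of 3 of the genes (right) in each library, both as log2 of the value plus 1. The pachytene and spermatid medians, Ybx2 and Pabpc2 were lower in both KO libraries than in both controls, and the Sertoli median was higher in both libraries of the Dnmt3L line.

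In order of level, Dazl and Pabpc1 led in every library. By the control means the neighbours Dazl and Pabpc1 (431 and 393 FPKM), Ybx1 and Ybx2 (246 and 240.0), Boll and Pabpc2 (68.5 and 54.3) and Cpeb1 and Ythdc2 (34.8 and 23.7) differed by less than the larger SD of each pair. Ybx2 took rank 3 in Pld6 WT, rank 4 in Dnmt3L het and Pld6 KO, and rank 5, below Boll, in Dnmt3L KO. Pabpc2 was the lowest of the set in both mutants, while Ythdc2 was the lowest in both controls.

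For each gene the 3 genes with the most similar profile over the 4 libraries were found, by Euclidean distance of centred log2(FPKM + 1) among 10612 genes with a mean of at least 5 FPKM. The nearest to Dazl were Mettl4, Mpp5 and Rad51c, at distances of 0.058 to 0.079, and 1361 genes lay within 0.5. The nearest to Pabpc1 were Eefsec, Stra8 and Ralgps2, with 1472 genes within 0.5. Boll was nearest to AK129341, Syce2 and Trim37 (281 genes within 0.5), Ythdc2 to Pole, Fam208b and Myo9a (624 genes), Cpeb1 to Zfp580, Podxl2 and Metrn (922 genes), and Ybx1 to Csnk2b, Slc25a39 and Brms1 (520 genes). Fewer genes lay within 0.5 of the other pair, and because the profiles were not scaled, these counts also reflect the wider ranges of the pair. Ybx2 was nearest to Phf7, Gsg2 and Galnt3, with 16 genes within 0.5, and Pabpc2 to Adam5, Pebp4 and Fbp1, with 14.

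Other genes of the same processes were counted from 6 lists. None lay more than 2-fold above both controls in either mutant, where 1.04% and 2.14% of all genes did. The counts below both controls stand beside 5.41% and 5.78% of all genes. Among 10 poly(A)-binding proteins and partners 1 lay more than 2-fold below both in each mutant, the paralog Pabpc6, at 20.3 and 33.8 FPKM in the controls, 2.2 in the Pld6 KO library and 1.38 in Dnmt3L KO. Among 18 CPEB paralogs and tail factors, Papolb, the testis poly(A) polymerase, was below both in each mutant, at 35.8 and 52.3 FPKM in the controls, 2.87 in the Pld6 KO library and 0.978 in Dnmt3L KO. Btg4, a deadenylation factor, was below both in Dnmt3L KO alone (log2 change -1.28, and -1.19 in Pld6 KO), at under 3 FPKM in every library. Cpeb2, a paralog of Cpeb1, had log2 changes of -0.71 and -0.91, and Paip1, a partner of poly(A)-binding protein, -0.77 and 0.14.

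Among 5 cold-shock domain genes, Ybx3, the remaining Y-box gene, was at 106 and 163 FPKM in the controls, 31.2 for Pld6 KO and 34.1 for Dnmt3L KO, below both by more than 2-fold in each mutant. Of 15 m6A factors and YTHDC2 partners 0 passed the threshold in either mutant, and Meioc (listed as Gm1564) had log2 changes of -0.39 and -1.13, and the m6A factor Zc3h13 0.95 and 0.09. The cold-shock gene Carhsp1 had -0.92 and 0.83. Of 32 DAZ partners and germ cell RNA-binding proteins 4 passed in Dnmt3L KO and 0 in Pld6 KO, namely Nanos3 (log2 change -1.10), Ddx25 (-1.52), Adad1 (-1.66) and Adad2 (-1.33). Ddx25, a helicase of spermatids, was at 92.4 and 115 FPKM in the controls, 48.2 in the Pld6 KO library and 35.5 in Dnmt3L KO. Of 13 cap-binding and eIF4 factors 0 passed, with the largest changes at Eif4ebp1 (0.68 and -0.54) and Eif4a2 (0.43 and 0.65). The list medians lay between -0.21 and 0.22 in Pld6 KO and between -0.39 and 0.22 in Dnmt3L KO, and edgeR's quasi-likelihood test gave 0 genes past an adjusted p of 0.05 in any list. Btg4, Nanos3 and Adad2 were named after their values had been seen.

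**Figure D5:**
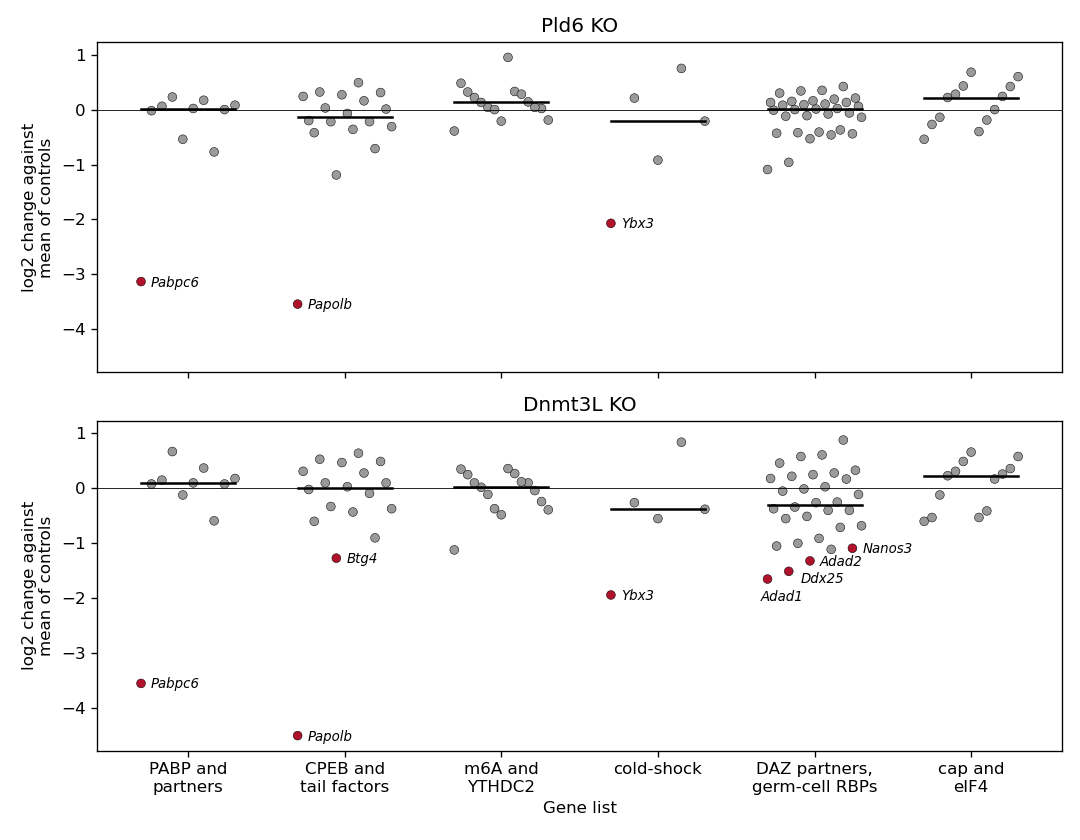
Log2 change against the mean of the controls for each gene of 6 lists, in Pld6 KO (top) and Dnmt3L KO (bottom), with a bar at each list's median and red for genes more than 2-fold below both controls. Pabpc6, Papolb and Ybx3 stand out in both mutants, and Btg4, Nanos3, Ddx25, Adad1 and Adad2 are marked in Dnmt3L KO.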

How the data were processed

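Single-end reads of 50 bases from a stranded library were mapped with TopHat2 and quantified over RefSeq genes with Cuffdiff by the authors, in versions not given in the sources used here. The submitters' processing notes name mm10. The deposited table holds, for every gene in every library, the estimated counts of fragments and the FPKM values that the authors' tool scaled to gene length and depth. Fragment totals per library exceed the read numbers stated in the study's methods. For 28 of 23980 genes at least 1 value was marked failed, and none of these was in a list used here.

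Calls needed FPKM + 1 to lie more than 2-fold beyond both controls. Estimated counts were rounded to whole numbers and tested with edgeR 4.0.16 (TMM, filterByExpr, quasi-likelihood) in 3 groups, with DESeq2 1.42.0 as an alternative, in R 4.3.3, leaving 1 residual degree of freedom. Other alternatives were the pseudocount (1 against 0.1 FPKM), the scaling, the filter, a 3-fold threshold and leaving out a control. A fit of both mutants together with the line as a block was added after seeing the data. The fits were tested on simulated data. Remaining work used Python 3.11.15 with pandas 2.3.3, scipy 1.17.1 and matplotlib 3.10.9.

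All 8 genes are named. From each list at most 2 genes with the largest change were named, with a mean of at least 1 FPKM and at least 10 fragments in the highest library, and for each of the 8 the 3 nearest profiles. The genes and lists were chosen with earlier results of these data known. Positions came from RefSeq on GRCm38.p6, and transcripts from GENCODE. Poisson intervals and floors cover counting error only.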

Additional observations from a re-analysis of the deposited data

Results flagged for a closer look

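In 2 genes the mutants moved in opposite directions against the control of their own line, a difference that was not tested because each genotype had 1 library. Ythdc2 was lower in Pld6 KO than in Pld6 WT (-0.43 on the log2 scale, 25.6 against 34.9 FPKM) and higher in Dnmt3L KO than in Dnmt3L het (0.52, 18.3 against 12.5 FPKM). Cpeb1 was higher in Pld6 KO (0.12, 46.4 against 42.6 FPKM) and lower in Dnmt3L KO (-0.36, 20.8 against 27.0 FPKM). Centred on L/Z markers Ythdc2 was positive in both lines (0.25 and 0.66), while Cpeb1 kept opposite signs (0.80 and -0.21). Both genes differed by more between the controls (-1.41 and -0.64, het minus WT) than between either mutant and its own control.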

How the results depend on the processing

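Ybx2 and Pabpc2 lay past the threshold under every setting run, including the 3-fold threshold. Without a control the count of lower genes ran from 2 to 3 in Pld6 KO and was 3 in Dnmt3L KO, with Ybx1 added without control replicate 2 (both mutants) and Boll without control replicate 1 (Dnmt3L KO). The median log2 change of the 8 genes was -0.42 in Pld6 KO, -0.48 with TMM scaling, -0.38 centred on L/Z markers, and -0.56 to -0.14 leaving out control replicate 1 or control replicate 2. In Dnmt3L KO it was -0.78, and -0.80, -0.16 and -0.97 to -0.69 in that order. Centring on L/Z markers moved the median of genes with a mean of at least 10 FPKM from -0.04 to 0.64 in Dnmt3L KO. Against the own control the median was -0.56 in Pld6 KO, -0.64 with TMM and 0.13 centred on L/Z markers, and it was -0.69 in Dnmt3L KO, -0.55 when centred. Genes past an adjusted p of 0.05, higher and lower, were 0 and 0 with edgeR, 8 and 429 (Pld6 KO) and 6 and 423 (Dnmt3L KO) with edgeR and no filter, and 15 and 957, and 17 and 919, with DESeq2. The cause was not tested. Leaving out a control left no residual degrees of freedom for edgeR. No paired analysis was possible because the labels give no replicate numbers, except by line: with both mutants pooled, edgeR called 131 higher and 1058 lower genes with line as the block against 0 and 0 without it, whereas a fit of each mutant on its own with a line term has no residual degrees of freedom. With a pseudocount of 0.1 FPKM Pabpc2 moved from -5.79 to -9.09 in Pld6 KO and from -5.68 to -8.24 in Dnmt3L KO. Depth limits Pabpc2 in the mutants, with 0 and 9 fragments.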
